A study of Mus musculus with 6 samples.

Results

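The transcripts of p53 and of its target genes were followed in C2C12 myotubes, the multinucleated cells that a mouse myoblast line forms in low serum. The genes are TRP53, which encodes p53, and MDM2, BAX, BBC3, CCNG1, SESN1, SESN2, TRP53INP1, ZMAT3 and PERP, and every array feature carrying 1 of these names, upper or lower case, was taken. They are 10 of the 30854 gene names and 22 of the 45281 probes on the array, and each probe was kept apart. Myoblasts received 60 nM of a scramble siRNA (Scramble, 3 arrays) or of 1 siRNA against *Dj1*, also called Park7 (siDJ-1, 3 arrays). Differentiation began 48 h after transfection and lasted 96 h in both groups, and the 6 samples shared a BeadChip. The replicates are numbered without a statement that they were separate cultures, so p-values measure the spread between these samples, which may be technical. No untransfected cells were analysed here, and with 1 siRNA a loss of DJ-1 and an action of the siRNA on other transcripts cannot be told apart.

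p53 is a transcription factor that the ubiquitin ligase Mdm2 keeps scarce, and DNA damage and other stresses raise it mainly by stabilising the protein. Active p53 turns on genes that halt the cell cycle, repair DNA, restrain growth through mTORC1, limit reactive oxygen or start apoptosis, and it turns on Mdm2 as well, which closes a feedback loop. In muscle cells it has been linked to exit from the cell cycle during differentiation and to atrophy.

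A probe was called detected on an array where the deposited detection p-value, which sets its signal against the negative controls, was under 0.05. Scramble arrays detected 16985, 17399 and 18179 probes and siDJ-1 arrays 18704, 18857 and 18408. The median standard error over a probe's beads was 11.3, 8.30 and 8.66 against 7.17, 6.36 and 5.88, so every Scramble array was noisier and had fewer detected probes than any siDJ-1 array. The part of this difference in the results below was not tested. Levels are given as log2 signal after background correction and quantile normalization, in the order of replicates 1, 2 and 3. Probes detected on at least 3 of the 6 arrays (17890) were tested with limma, and a probe was called higher or lower at an adjusted p under 0.05. The targeted Park7 had a log2 signal of 13.59, 13.37 and 13.63 in Scramble and 12.48, 12.49 and 12.15 in siDJ-1. All siDJ-1 values lay below all Scramble values, and 44.7% of the Scramble signal was left (log2 fold change -1.16, standard error or SE 0.14, limma adjusted p = 0.00344).

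After *Dj1* knockdown the transcript of p53 itself fell while transcripts of 5 of its target genes rose. ZMAT3, TRP53INP1 and BBC3 were higher by 0.87 to 0.97 on the log2 scale on their clearest probes, CCNG1 and SESN1 were higher by less, and MDM2 and BAX were not called. Over the alternatives 3 to 6 genes had a probe called higher, and only ZMAT3, TRP53INP1 and BBC3 did without siDJ-1 replicate 1 or without siDJ-1 replicate 3. TRP53 fell to 53.9% of the Scramble signal. In bulk RNA, fewer cells carrying a transcript and less of it per cell cannot be told apart. Of the 22 probes 16 were tested, for 8 of the 10 genes, and 6 were outside the detection filter, among them every probe of SESN2 and PERP.

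Among the 16 tested probes 9 were called higher, where 16.5% of all tested probes were higher, and 1 was called lower, where 13.6% were lower. Of the 9, 1 dim BBC3 probe passed the filter only through siDJ-1 arrays. The siDJ-1 arrays lay wholly above the Scramble arrays for 13 of the 16, against 26.5% of all tested probes, and wholly below for 1, against 22%. The fitted difference was positive for 15 of the 16. Its median was 0.38 on the log2 scale, compared with 0.05 over all tested probes. These counts and the median include that dim BBC3 probe. The 16 probes are of 8 genes, and probes of the same gene are not independent measurements. None of the 9 reached a doubling, which 499 of the 2957 higher probes of the array did. The number called higher depended on single arrays and was 4 without siDJ-1 replicate 1, 5 without siDJ-1 replicate 3 and 5 without Scramble replicate 3. Over the whole array the number fell as well, from 2957 to 1387, 1451 and 2218 of 17890. With 3 arrays against 3, an exact permutation test of 1 probe cannot give a p below 0.1.

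**Figure D1:**
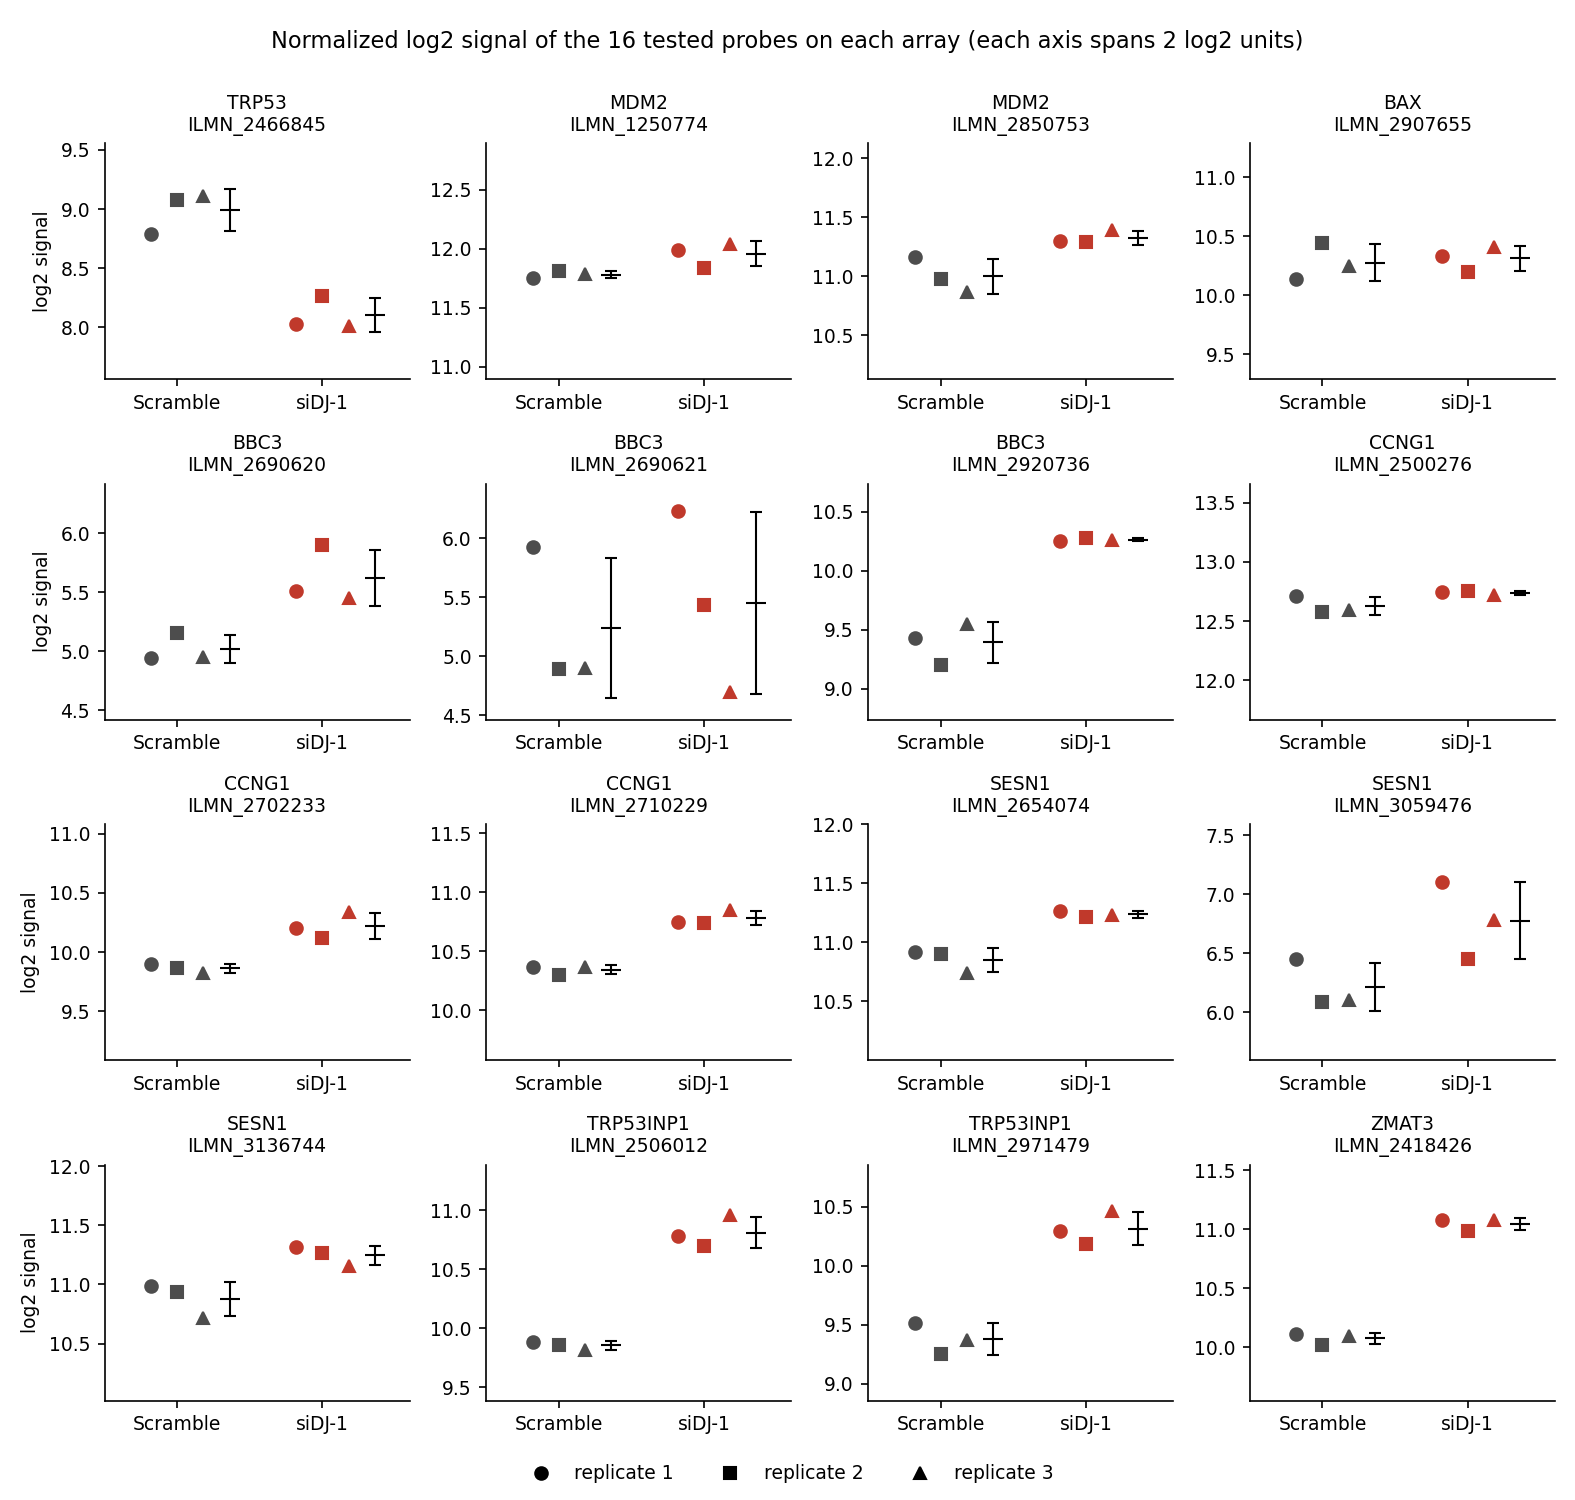
Normalized log2 signal of each tested probe of p53 and its target genes on the 3 Scramble arrays (grey) and the 3 siDJ-1 arrays (red), with symbols for replicate numbers and a bar for the mean ± SD. The groups are apart for 14 of the 16 probes and overlap for BAX and for BBC3 ILMN_2690621.

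**Figure D2:**
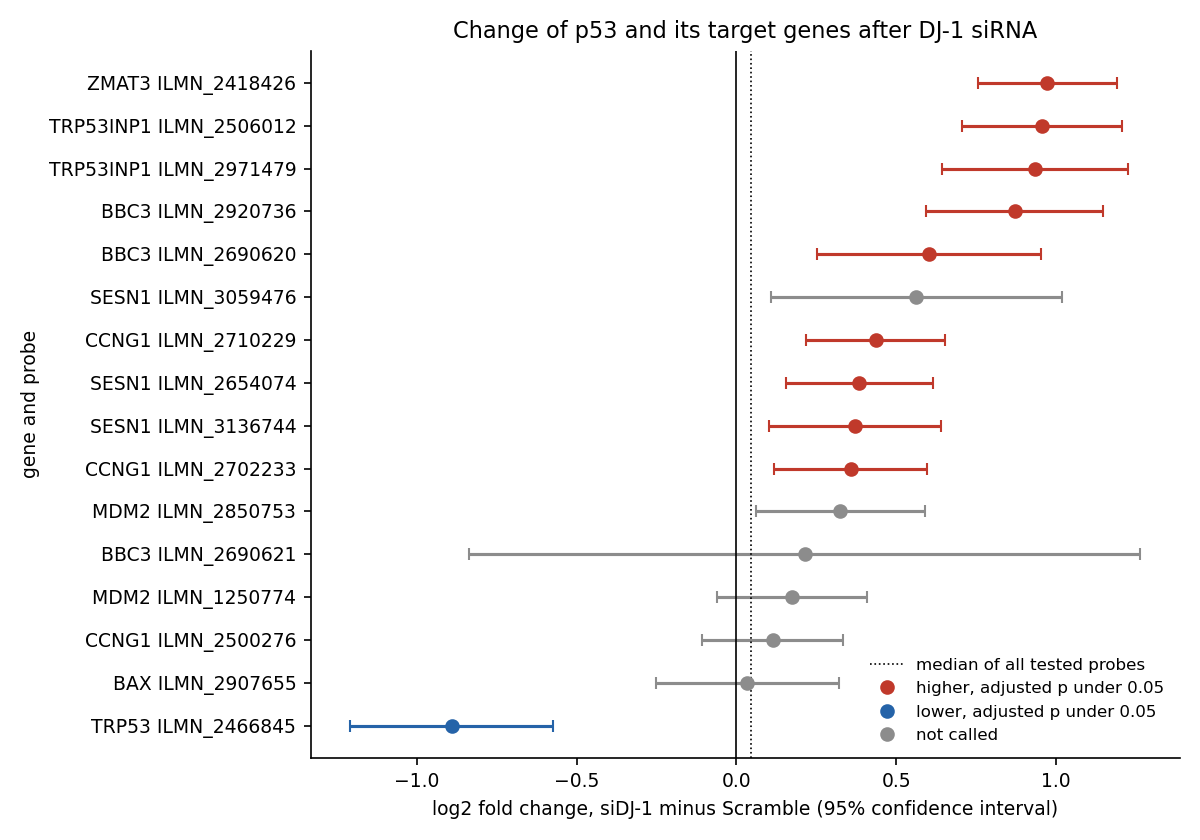
Log2 fold change of the same probes, siDJ-1 minus Scramble, with its 95% confidence interval before adjustment for multiple tests, from limma. The solid line marks 0 and the dotted line the median of all tested probes, 0.05, and TRP53 is the only probe to the left of 0.

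The region before the start of transcription was read for the letters that p53 is known to bind. A p53 response element consists of a pair of decamers, and the p53 consensus decamer was searched in the 300 bases from 250 before to 50 after each start in RefSeq (GRCm38.p6). The decamer reads the same on both strands. Windows were at hand for 7 of the 10 genes, 10 in all, and the set of windows used held none for Trp53inp1, Zmat3 and Perp. The decamer was found in 5 of the 10 windows, 1 each of Trp53, Mdm2, Bax, Ccng1 and Sesn1, and in 8.36% of all 32851 windows. The genes were listed as p53 and its targets beforehand, so a share above that of all windows says nothing about the knockdown. It was absent from the 3 windows of Bbc3, from the other window of Sesn1 and from that of Sesn2. The 60 bases around each match are shown because they set genes called higher (Ccng1, Sesn1) beside genes not called higher (Trp53, Mdm2, Bax), with the decamer in capitals and all ending before the start of transcription.
Trp53, chr11:69580259-69580318, plus strand: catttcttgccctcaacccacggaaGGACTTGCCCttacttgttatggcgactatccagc
Mdm2, chr10:117710910-117710969, minus strand: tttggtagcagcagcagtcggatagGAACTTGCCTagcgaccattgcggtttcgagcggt
Bax, chr7:45467065-45467124, minus strand: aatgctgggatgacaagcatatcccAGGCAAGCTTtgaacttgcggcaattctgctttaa
Ccng1, chr11:40755437-40755496, minus strand: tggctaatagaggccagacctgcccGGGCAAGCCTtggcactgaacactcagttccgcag
Sesn1, chr10:41887241-41887300, plus strand: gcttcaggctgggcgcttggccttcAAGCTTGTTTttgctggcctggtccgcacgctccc
A neighbouring decamer with at most 13 bases between was sought on either side of each match. The best neighbour departed from the consensus at 1 letter in Ccng1, directly beside the match, and at 1 letter in Bax, with 1 base between. In Sesn1 it departed at 2 letters, in Trp53 at 3 and in Mdm2 at 4. Ccng1 was called higher and Bax was not, although the best neighbour departed at 1 letter in both. Whether such letters go with the calls was not tested, and no window was at hand for Zmat3 and Trp53inp1. How often a neighbour this near to the consensus lies beside a match in other windows was not counted. Sites outside these windows were not sought, so a gene without a match may have a site elsewhere. A match describes the sequence only, and binding of p53 was not measured.

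p53 itself was read from TRP53 probe ILMN_2466845, detected on all 6 arrays. Its log2 signal was 8.78, 9.08 and 9.11 in Scramble and 8.03, 8.27 and 8.01 in siDJ-1. Every knockdown array was lower than every Scramble array, by a log2 fold change of -0.89 (SE 0.13, limma adjusted p = 0.00583). The transcript remained called lower under all 14 alternatives, with log2 fold changes between -1.003 and -0.66. The other TRP53 probes did not pass the filter. ILMN_1231006 was detected on siDJ-1 replicate 2 alone, with a signal of 195 against 150 to 183 elsewhere, and ILMN_2585183 on no array. The fall therefore rests on 1 probe.

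MDM2, which marks p53 for degradation and is also its target, had 2 bright probes. ILMN_2850753 had a log2 signal of 11.16, 10.98 and 10.87 in Scramble and 11.30, 11.29 and 11.39 in siDJ-1. The groups were apart, yet the log2 fold change of 0.32 (SE 0.11, limma adjusted p = 0.067) missed the threshold, and it passed in 7 of 14 alternatives. On ILMN_1250774 the signal was 11.75, 11.81 and 11.78 against 11.99, 11.84 and 12.04. Again the siDJ-1 arrays were the higher ones, with a log2 fold change of 0.18 (SE 0.10, limma adjusted p = 0.221). It ran from 0.14 to 0.30 over the alternatives and was called only where the 75th percentile shift was used on uncorrected signal. The dim probe ILMN_1229882 was detected on 0 of 3 Scramble and 2 of 3 siDJ-1 arrays and was not tested. MDM2 was thus not called, with an upper limit of 0.59 on the log2 scale for the 95% interval of its more changed probe.

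Cyclin G1 (CCNG1), which recruits a phosphatase that acts on Mdm2 and is induced by p53 in most cell types, was measured by 3 probes. On ILMN_2710229 the log2 signal was 10.37, 10.30 and 10.36 in Scramble and 10.75, 10.74 and 10.85 in siDJ-1. The 3 knockdown arrays were above the others by 0.44 (SE 0.09, limma adjusted p = 0.0153). Values of ILMN_2702233 were 9.90, 9.87 and 9.83 against 10.20, 10.12 and 10.34, again without overlap and with a log2 fold change of 0.36 (SE 0.10, limma adjusted p = 0.0375). The brightest of the 3, ILMN_2500276, showed 12.71, 12.58 and 12.59 against 12.75, 12.75 and 12.72. Its groups were apart by little, and its log2 fold change of 0.11 (SE 0.09, limma adjusted p = 0.388) was not called in any alternative (up to 0.26). The intervals of the 3 probes overlap, and the difference between them was not tested. The call of ILMN_2702233 was lost in 8 of 14 alternatives, which were each of the 6 arrays left out (adjusted p up to 0.113), the replicate block and no filter, and that of ILMN_2710229 without siDJ-1 replicate 1 or 3 (up to 0.057).

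ZMAT3, also named Wig-1, encodes a zinc finger protein that binds RNA and takes part in growth control downstream of p53. Its single probe ILMN_2418426 had a log2 signal of 10.11, 10.02 and 10.10 in Scramble and 11.08, 10.99 and 11.08 in siDJ-1. The arrays of a group were close (SD 0.05 in each, n = 3), and the groups were far apart beside that spread. The rise was 1.96-fold (95% interval 1.69 to 2.28, log2 fold change 0.97, limma adjusted p = 0.00279), the largest of the tested members in this fit, and it was called under all 14 alternatives (0.89 to 1.07).

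TRP53INP1 encodes a stress protein that helps p53 become phosphorylated and promotes both apoptosis and autophagy. Probe ILMN_2506012 gave 9.89, 9.86 and 9.82 in Scramble and 10.78, 10.69 and 10.96 in siDJ-1. Probe ILMN_2971479 gave 9.52, 9.25 and 9.37 against 10.30, 10.18 and 10.46. Both separated the groups clearly, and in siDJ-1 both were highest on replicate 3. Their log2 fold changes were close, 0.96 (SE 0.11, limma adjusted p = 0.0031) and 0.93 (SE 0.12, limma adjusted p = 0.00405), and both were called under all 14 alternatives.

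Of the genes that act on mitochondria in apoptosis, BBC3 encodes Puma, a BH3-only protein that frees the pore formers, and BAX encodes a pore former. The BBC3 probe ILMN_2920736 had a log2 signal of 9.43, 9.20 and 9.54 in Scramble and 10.25, 10.27 and 10.26 in siDJ-1. The siDJ-1 arrays were nearly equal (SD 0.01, n = 3) and all lay above the wider spread of the Scramble arrays (SD 0.18, n = 3). This was a 1.83-fold rise (95% interval 1.51 to 2.21, log2 fold change 0.87, limma adjusted p = 0.00423) and was called under all 14 alternatives.

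The other BBC3 probes were near background. ILMN_2690620 was detected on 0 of 3 Scramble arrays and 3 of 3 siDJ-1 arrays, so it passed the detection filter only through the group in which it was higher and had to differ. Taking for each Scramble array the higher of its lowest detected signal and the probe's own, the difference was at least 1.07-fold (fitted log2 fold change 0.60, and 0.20 to 0.69 over the alternatives), and the call was lost in 7 of 13 alternatives. ILMN_2690621 ranged from 4.89 to 5.93 in Scramble and from 4.69 to 6.23 in siDJ-1. With this overlap it was not called (log2 fold change 0.21, SE 0.44, limma adjusted p = 0.748), and the sign turned to -0.18 without siDJ-1 replicate 1.

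BAX had the fitted difference closest to 0. Its log2 signal was 10.13, 10.45 and 10.25 in Scramble and 10.33, 10.20 and 10.41 in siDJ-1. The groups overlapped fully. The log2 fold change was 0.03, with a 95% interval from -0.25 to 0.32 (limma adjusted p = 0.851), and it was -0.04 without Scramble replicate 1 and -0.01 without siDJ-1 replicate 3. That interval ends below the one of BBC3 ILMN_2920736, which begins at 0.59, although the difference between the genes was not tested.

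PERP, a membrane protein of desmosomes that p53 induces during apoptosis, was detected on no array. Its signal was 168, 155 and 129 in Scramble and 148, 148 and 143 in siDJ-1, below the lowest detected signal of each array, which lay between 162 and 187. No change can be read from it.

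The sestrins SESN1 and SESN2 restrain mTORC1 when leucine is low by binding GATOR2, and they help to restore peroxiredoxins. SESN1 was measured by 3 probes. ILMN_2654074 had a log2 signal of 10.91, 10.90 and 10.74 in Scramble and 11.27, 11.21 and 11.23 in siDJ-1. ILMN_3136744 had 10.99, 10.94 and 10.71 against 11.32, 11.27 and 11.16. On both the siDJ-1 arrays were higher throughout and Scramble replicate 3 was the lowest array. The log2 fold changes were 0.39 (SE 0.10, limma adjusted p = 0.0268) and 0.37 (SE 0.11, limma adjusted p = 0.0481). Each of these calls was lost in 7 of 14 alternatives, which were those leaving out Scramble replicate 2 or 3 or any siDJ-1 array (adjusted p up to 0.155), the replicate block and no filter. The dim probe ILMN_3059476 gave 6.45, 6.08 and 6.11 against 7.10, 6.45 and 6.78, so that its groups nearly touched, and its log2 fold change of 0.56 (SE 0.19, and 0.23 to 0.72 over the alternatives) was not called (limma adjusted p = 0.0656) except in 4 of 13 alternatives.

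No SESN2 probe passed the detection filter. ILMN_1219984 was detected on no array, with signals from 129 to 148 in Scramble and from 141 to 165 in siDJ-1. ILMN_2948945 was detected on 0 of 3 Scramble and 2 of 3 siDJ-1 arrays, with signals of 158, 163 and 145 against 179, 178 and 155. Neither was tested. Sesn3, the remaining sestrin, was measured by 1 tested probe that was not called (log2 fold change 0.42, and 0.22 to 0.57 over the alternatives, limma adjusted p = 0.124).

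**Figure D3:**
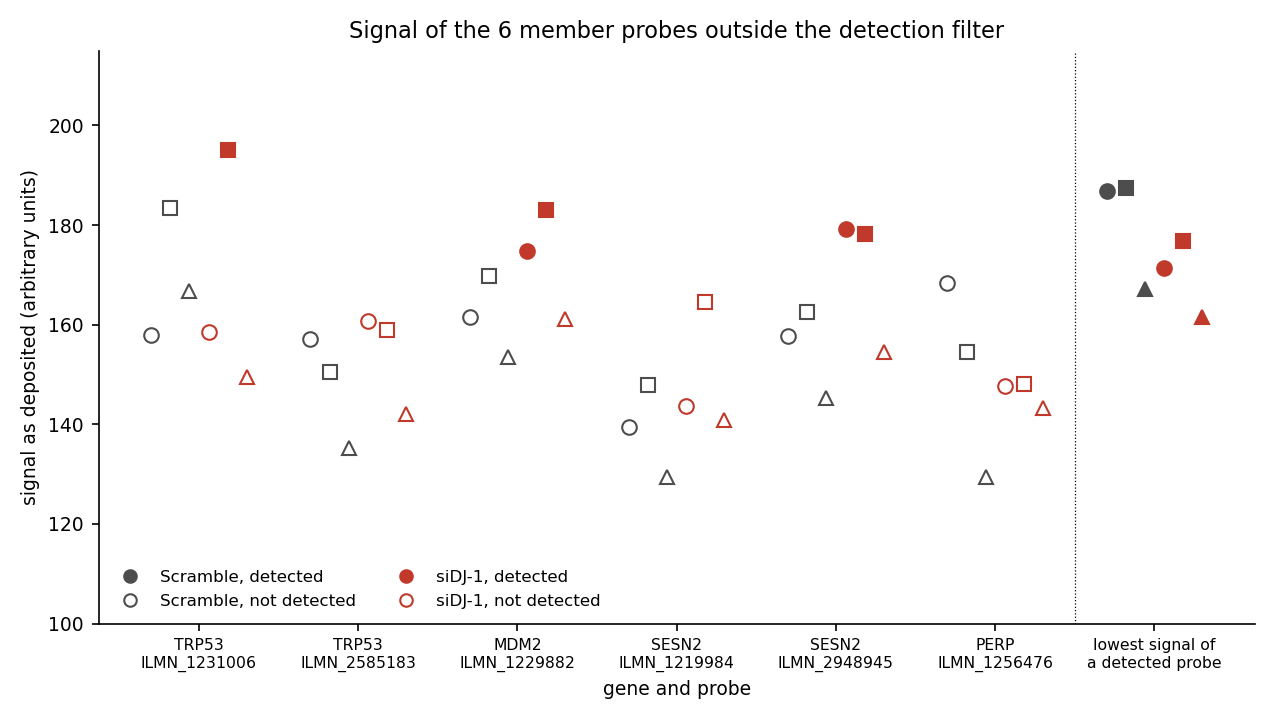
Deposited signal, in arbitrary units, of the 6 probes outside the detection filter on each array, Scramble in grey and siDJ-1 in red, filled where detected, with the lowest signal of a detected probe on each array at the right. SESN2 ILMN_2948945 and MDM2 ILMN_1229882 were each detected on 2 siDJ-1 arrays and on 0 Scramble arrays, and the PERP probe on none.

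With the tested probes of each gene averaged before the fit, 5 of the 8 genes were higher and 1 was lower, where 2348 of all 12771 genes were higher and 1854 lower. The mean of BBC3 includes ILMN_2690620, which had to differ to pass the filter, so its call here supports nothing beyond that of ILMN_2920736. In descending order the log2 fold changes were 0.97 for ZMAT3, 0.95 for TRP53INP1, 0.56 for BBC3, 0.44 for SESN1 and 0.30 for CCNG1, then 0.25 for MDM2 and 0.03 for BAX, neither called, and -0.89 for TRP53. The intervals of ZMAT3 (0.77 to 1.18) and TRP53INP1 (0.69 to 1.20) overlapped, as did those of SESN1 (0.17 to 0.71), CCNG1 (0.10 to 0.51) and MDM2 (0.03 to 0.47). That of BBC3 was 0.16 to 0.96. The order of the genes was not tested.

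**Figure D4:**
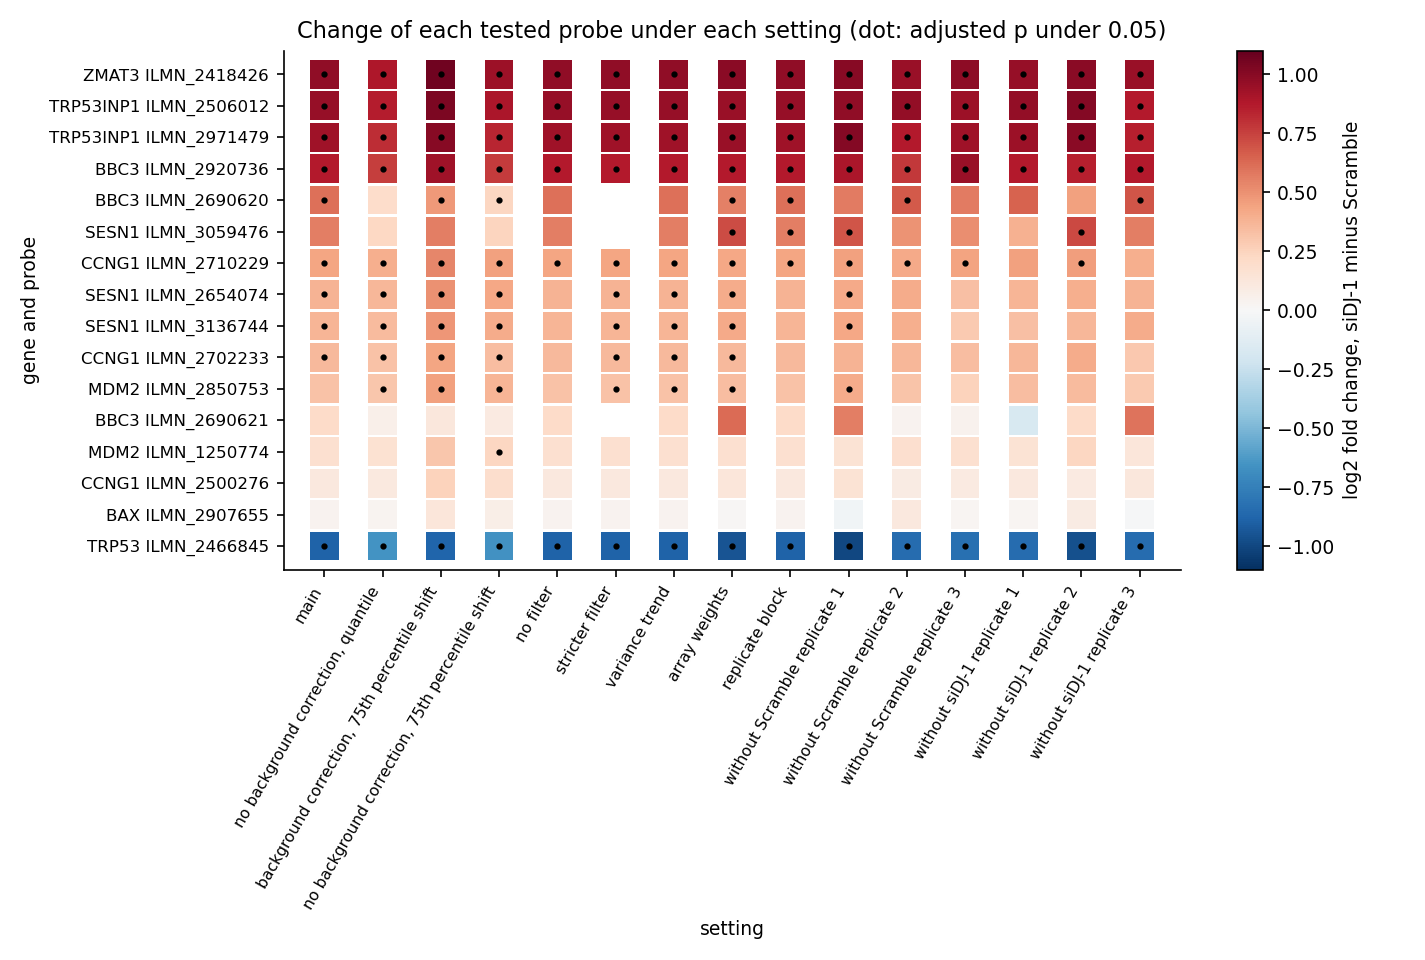
Log2 fold change of each tested probe (colour, siDJ-1 minus Scramble) in the reported setting and under each alternative setting, with a dot where the adjusted p from limma was under 0.05 and a gap where the probe was not tested. TRP53, ZMAT3, both TRP53INP1 probes and BBC3 ILMN_2920736 carry a dot in every column in which they stand, and the CCNG1 and SESN1 calls come and go.

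Further p53 targets, grouped by what they do, were read beside these genes. In 4 lists with 63 tested probes, 22 were higher (of 14 genes) and 3 lower (of 3 genes), with a median log2 fold change of 0.28. Of all tested probes 16.5% were higher and 13.6% lower, with a median of 0.05, and no list was tested against these shares. Most genes named from these lists were taken for the smallest adjusted p, so they do not speak for their lists. The cell cycle arrest list had 6 of 13 probes higher and 0 lower (median 0.50). Ckap2, a microtubule-associated protein, rose by 1.25 on the log2 scale (limma adjusted p = 0.00284). Gdf15, a secreted stress cytokine, rose by 0.63 and Gadd45a, a stress sensor that binds Pcna, by 1.01 and 0.85 on 2 probes. Psrc1, a spindle protein, was detected on 1 of 3 Scramble arrays, so the size of its rise is uncertain (fitted log2 fold change 1.42, 0.50 to 1.64 over the alternatives). Cdkn1a, the best-known p53 target and an inhibitor of cyclin-dependent kinases, was not called. Its 3 probes had log2 fold changes of -0.24, -0.24 and -0.16 (limma adjusted p = 0.126, 0.117 and 0.225), with every siDJ-1 array below every Scramble array on each, and over the alternatives they ran from -0.29 to -0.11, from -0.30 to -0.06 and from -0.20 to -0.01. The first of these passed in 1 and the second in 2 of 14 alternatives.

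Among p53 targets in apoptosis 7 of 23 probes were higher and 2 lower (median 0.21). Pmaip1, Phlda3 and Eda2r, picked out after their values were seen, were not called on any tested probe. Apaf1, the scaffold of the apoptosome, rose on 3 probes by 1.32, 1.15 and 1.15, of which ILMN_1228561 ran from 0.52 to 1.34 over the alternatives. The death receptor gene Fas rose by 0.98 and 0.88 on the probes detected on all arrays, the second of which was lost in 6 of 14 alternatives. The remaining Fas probe, 1 of the 7, had no detected signal in Scramble, so it passed the filter only through siDJ-1 arrays and had to differ (lower bound 1.43-fold). The lower probes were 1 each of Casp8 and Bid, which link death receptors to mitochondria and were picked out after their values were seen (-0.92 and -0.67, limma adjusted p = 0.0155 and 0.033). Their calls were lost in 2 and 6 of 14 alternatives, in both cases without siDJ-1 replicate 1 and without siDJ-1 replicate 3. The lower Casp8 probe ran from -1.10 to -0.54 over the alternatives, and the other tested Casp8 probe was not called (-0.65, limma adjusted p = 0.0582). For DNA repair 5 of 13 probes were higher and 1 lower (median 0.41). Polk, a translesion polymerase, rose by 0.98 and Ercc5, a nuclease of nucleotide excision repair, by 0.72 and 0.60, while Pcna, the sliding clamp of replication, fell by 0.57 on the log2 scale (limma adjusted p = 0.00916). The metabolism and redox list had 4 of 14 probes higher and 0 lower (median 0.37), namely 2 each of Ulk1, a kinase that starts autophagy (1.13 and 0.80), and Lpin1, a phosphatidate phosphatase (0.94 and 0.88, the first 0.48 to 1.08 and the second 0.51 to 0.95 over the alternatives). The Ulk1 call at 0.80 was lost in 6 of 14 alternatives.

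The list of regulators and relatives of p53 had 2 of 24 probes higher and 1 lower (median 0.09), where 16.5% and 13.6% of all tested probes were. Mdm4, the partner of Mdm2, was read from 1 of 5 probes (log2 fold change -0.07, limma adjusted p = 0.85), which turned to 0.17 without Scramble replicate 3. Ppm1d, a phosphatase that switches p53 signalling off, was not called (0.43, limma adjusted p = 0.0637) except in 5 of 14 alternatives, nor was Trp63 (-0.88, and -1.12 to -0.32 over the alternatives, limma adjusted p = 0.0603) except in 5 of 13, which was detected on 2 of 3 siDJ-1 arrays. The checkpoint kinase gene Chek2 had both higher probes. ILMN_1247062 had no detected signal in Scramble, so it too passed the filter only through siDJ-1 arrays and had to differ (lower bound 1.57-fold). ILMN_2633492 (0.73, and 0.26 to 0.96 over the alternatives) was lost in 7 of 13 alternatives, and the remaining one was not called. Usp7, a deubiquitinase of Mdm2 and p53, had the lower probe (-0.38, lost in 8 of 14 alternatives), and its other tested probes were not called.

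Partners of BAX and BBC3 in the Bcl-2 family had 7 of 18 probes higher and 0 lower, with a median of 0.31, where 16.5% and 13.6% of all tested probes were called. Bcl2l11 encodes Bim, a BH3-only protein like Puma, and rose by 1.49 (0.76 to 1.72 over the alternatives) and 1.43 on its clearest probes. Another probe, 1 of the 7, was undetected in Scramble and again passed the filter only through siDJ-1 arrays, so that it had to differ (lower bound 1.11-fold). It kept its call in 2 of 13 alternatives. Bnip3 and Bnip3l, receptors for the removal of mitochondria, rose by 1.19 (0.50 to 1.305 over the alternatives) and 0.68. The remaining higher probes, picked out after their values were seen, were of Bik (1.29, limma adjusted p = 0.0059) and Mcl1 (0.47, limma adjusted p = 0.0207). They were not followed over the alternatives. In the list of sestrin partners and brakes of mTORC1, 4 of 31 probes were higher and 5 lower (median 0.08), shares near those of all tested probes, so the genes named next do not speak for the list. Of the GATOR2 subunits, Seh1l was higher on 2 probes (0.85 and 0.52) and not called on 2 others, Sec13 was lower (-0.61), and the remaining 3 of the list had no called probe. Foxo1, a transcription factor that activates sestrin genes, was higher on 1 probe (0.52) and not called on the other. Atf4, which drives Sesn2 transcription under amino acid and endoplasmic reticulum stress, was lower on both probes (-0.74 and -0.48), and Chac1, its target, was lower by -1.08 (limma adjusted p = 0.0031). The calls of Foxo1, of Seh1l at 0.52 and of both Atf4 probes were lost without siDJ-1 replicate 1. Ddit3, another stress factor, was not called (0.67 and 0.64, limma adjusted p = 0.068 and 0.0595) except in 5 and 6 of 14 alternatives.

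**Figure D5:**
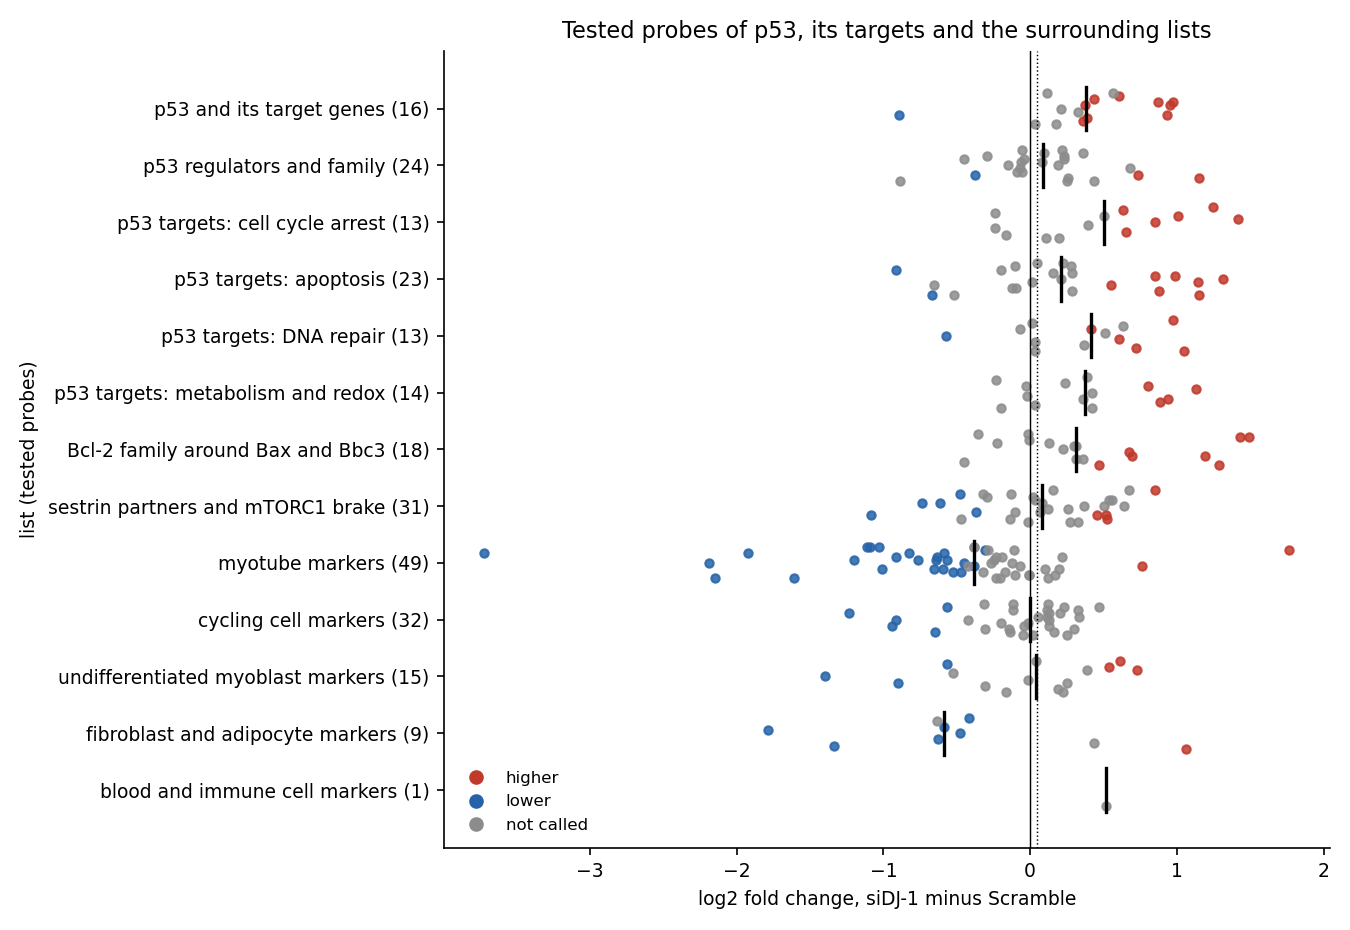
Log2 fold change, siDJ-1 minus Scramble, of every tested probe of p53 and its target genes and of each surrounding list, with the number of tested probes in brackets, the list's median as a black bar and the median of all tested probes as a dotted line. The 4 lists of further targets have medians from 0.21 to 0.50, and the myotube list is at -0.38.

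Markers of cell state were read because p53 targets differ between dividing, fusing and other cells. Myotube markers had bright probes in both groups, and 24 of 49 probes were lower and 2 higher after knockdown (median -0.38). Among all tested probes 13.6% were lower and 16.5% higher. Of the 24, 1 passed the filter only through Scramble arrays. Their summed signal on a linear scale was 598500, 580100 and 577500 in Scramble and 480800, 496700 and 448800 in siDJ-1, lower on every siDJ-1 array. Myh4, an adult fast myosin, was at -3.72 (detected on 1 of 3 siDJ-1 arrays, -3.98 to -1.90 over the alternatives), both higher probes were of Ttn, the larger at 1.77, while 3 other Ttn probes were lower, and Acta1 was not called (-0.01).

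For cycling cells 0 of 32 probes were higher and 5 lower (median 0.00), where 16.5% and 13.6% of all tested probes were. The lower share was near that of all tested probes, so the genes named next do not speak for the list. Tyms was at -1.23 and Mcm3 at -0.92, the latter detected on 1 of 3 siDJ-1 arrays and at -1.06 to -0.28 over the alternatives. Mcm6, the brightest of the list, was not called (-0.05). The sums were 17870, 19860 and 18460 against 17300, 18720 and 17710, which overlap. Undifferentiated myoblast markers had 3 of 15 probes higher and 3 lower (median 0.04), beside 16.5% and 13.6% of all tested probes. Pax7, Pax3, Myf5 and Calcr did not pass the detection filter, Myod1 (-0.90) and Id3 (-1.40, and -1.59 to -0.70 over the alternatives) were lower, and the brightest Ncam1 probe was not called (-0.02). The higher probes, picked out after their values were seen, were of Vcam1 (0.73, and 0.31 to 0.84 over the alternatives), Ncam1 (0.61, lost in 1 of 14 alternatives) and Cd34 (0.54, lost in 5). The sums were 17710, 19170 and 19110 against 18320, 19030 and 19130. Fibroblast and adipocyte markers were lower on 6 of 9 probes and higher on 1 (median -0.58), beside 13.6% and 16.5% of all tested probes. Dcn was at -1.79 and -1.34, and Col3a1, the brightest of the list, at -0.42 (lost in 5 of 14 alternatives). The higher probe, of the adipocyte regulator Pparg and also picked out after its value was seen, was at 1.06 (0.60 to 1.30 over the alternatives, lost in 5 of 14). The sums were 24640, 23500 and 24140 against 15150, 17280 and 14720. Thy1, Lum, Tcf21, Adipoq, Fabp4 and Plin1 did not pass the filter. Of blood and immune cell markers 1 probe of 17 was tested, that of Cd68. It was not called (0.52, limma adjusted p = 0.169) except without Scramble replicate 2. The probe was detected on 1 of 3 Scramble arrays and ran from 0.19 to 0.83 over the alternatives. The sums were 28.7, 53.02 and 27.5 against 52.7, 45.2 and 51.8. Ptprc, Adgre1, Cd3e, Itgam, Csf1r and Lyz2 were among those that did not pass. Many probes of myotube and fibroblast markers were thus lower on the same arrays on which TRP53 was lower and target genes such as ZMAT3 were higher, and their part in those changes was not tested.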

How the data were processed

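The authors quantified the arrays in GenomeStudio 2011.1, by the paper's methods, and deposited a mean intensity per probe and array, with its bead count, its standard error and a detection p-value. The deposited intensity is neither normalized nor background-subtracted. In R 4.3.3, limma 3.58.1 corrected background with neqc (normexp with negative controls inferred from the deposited detection p-values, offset 16) and quantile normalized the arrays. lmFit and eBayes were run on all 17890 probes detected on at least 3 arrays, with Benjamini-Hochberg adjustment over all of them, and the code was tested on simulated data. The number of arrays limits the precision. List genes were matched through RefSeq genes of GRCm38.p6, where 32345 of the 45281 probes had an entry, and otherwise by the array's names.

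The members and lists were chosen with earlier results of these data known. The lists were p53 regulators and family, p53 targets in cell cycle arrest, apoptosis, DNA repair and metabolism and redox, the Bcl-2 family around Bax and Bbc3, sestrin partners and brakes of mTORC1, and 5 marker lists. Named were every probe of the members and Park7, the genes of up to 4 tested probes with the smallest adjusted p per list, Cdkn1a, Mdm4, Sesn3, Ppm1d, Atf4 and Ddit3, and, per marker list, the brightest gene and the genes of the 2 probes with the smallest adjusted p. List probes that did not pass the filter are counted only, and 1 marker gene is not reported here.

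The alternatives were no background correction (floor of 1), scaling to the 75th percentile on corrected or uncorrected signal, no filter, a filter of detection p under 0.01 on all 6 arrays, a trend in the prior variance, array weights, a replicate block, leaving out single arrays, and the mean of a gene's probes. Where a probe was undetected on all arrays of a group, its change is a lower bound against the lowest detected signal of those arrays.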

Additional observations from a re-analysis of the deposited data

How the results depend on the processing

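Park7 was called lower in every setting (log2 fold change -1.24 to -1.003). TRP53, ZMAT3, both TRP53INP1 probes and BBC3 ILMN_2920736 kept their calls in every alternative, and of 43 called probes named from the lists by the rule 33 did. Of the called probes named outside the rule that of Vcam1 did, and those of Casp8, Bid, Cd34 and Pparg and Ncam1 ILMN_1237421 did not. Those of Bik and Mcl1 were not followed. Without a filter on dim probes, where 45281 probes were tested, 5 member probes were higher, and over the whole array 1908 were higher and 1611 lower. With the probes of each gene averaged, fewer values were tested, and 5 members and 23 genes of the 7 wider lists were higher. The variance trend gave 14 lower probes in those lists in place of 9, for which the cause was not tested. With each array left out in turn, 4 to 9 member probes were higher, not always the same ones, and 1 was lower, 3 to 6 members had a probe called higher, 25 to 35 list probes were higher and 4 to 10 lower, and over the array 1387 to 2859 were higher and 1172 to 2412 lower, with fewer arrays compared. Values near 0 changed sign. With an array left out BAX ran from -0.036 to 0.118 (below 0 without Scramble replicate 1 or siDJ-1 replicate 3), BBC3 ILMN_2690621 from -0.176 to 0.599 (below 0 without siDJ-1 replicate 1), Mdm4 from -0.300 to 0.172 (above 0 without Scramble replicate 3) and Acta1 from -0.0504 to 0.0665. With the 75th percentile shift, on corrected and on uncorrected signal, Acta1 was at 0.237 and 0.179, Mcm6 at 0.0591 and 0.0063 and Ncam1 at 0.112 and 0.055, and array weights gave 0.0013 for Acta1. None of these was called, and the cause was not tested.

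The replicate block, with the replicate number in the fit, gave 7 member probes higher and 1 lower. The 7 were 6 of the 9 in the main fit and SESN1 ILMN_3059476, and the 3 lost were CCNG1 ILMN_2702233, SESN1 ILMN_2654074 and SESN1 ILMN_3136744. The block gave 2361 higher and 1989 lower over the array. The numbers were not taken as pairs: deviations of same-numbered arrays from their group means correlated at 0.054, 0.047 and 0.020. Every array did correlate best with its own number, which is a hint from the data and not from the design. Signal over background limits SESN2, PERP and the dim probes of TRP53, MDM2 and BBC3.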
